A study of Mus musculus with 16 samples.

Results

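The 82 mouse genes described here encode heat shock proteins, their co-chaperones and the regulators of the stress responses to unfolded proteins. They were taken by name from the 21770 protein-coding genes of the GENCODE M39 annotation: every symbol starting with Hspa, Hspb, Hsp90, Dnaja, Dnajb or Dnajc, together with Hsph1, Hspd1, Hspe1, Hsf1, Hsf2, Bag3, Atf4, Atf6, Xbp1, Ern1, Eif2ak3 and Ddit3. The rule uses names and no measured value, but it was set with earlier results of these data known. Their exons held 663 of the 169564 m6A peaks of the 8 lists analysed, which is 0.391% of the peaks, and at least 1 peak lay in 57 of the 82 genes.

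Hsp70 and Hsp90 proteins bind unfolded proteins in cycles driven by ATP. J proteins (the Dnaj genes) bring clients to Hsp70 and start its ATP hydrolysis, and nucleotide exchange factors such as Bag3 and Hsph1 release them. Heat shock factors raise the transcription of the inducible chaperones, while Eif2ak3 (PERK), Ern1 (IRE1) and Atf6 report unfolded proteins in the endoplasmic reticulum. Ischaemia and reperfusion of the brain is a classical trigger of both responses. N6-methyladenosine (m6A) is a methyl mark on adenosines of mRNA, deposited mostly in a motif named RRACH, where R is A or G and H is A, C or T in the genomic letters used below.

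The lists come from MeRIP-seq of cerebral cortical peri-infarct tissue of male C57BL/6J mice operated on at 6 to 8 weeks of age, with 6 mice per surgery group. The mice were sham-operated (Sham) or had the middle cerebral artery closed with a nylon filament for 2 h and reperfused for 0, 6 or 24 h (MCAO/R-0 h and so on), and the sources name no other allele or agent for these libraries beyond the anaesthetic Avertin. Fragmented RNA was pulled down with an m6A antibody (IP), and stretches with more IP than input reads were called as peaks by the authors, 1 list for each of the 2 IP libraries of a group. Input libraries were not used here, and RNA abundance was therefore not measured. Whether the 2 libraries of a group came from separate mice is not given in the sources used here, so the spread between them may be technical.

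The lists held 18775 to 24078 peaks. These are more than the confident peaks that the paper reports for each sample, and the sources used here do not say how the sets relate. Without read counts in them, sequencing depth is unknown and counting error cannot be stated. Each peak has a score whose scale is not defined in the sources used here; it was used only as a rank, and the score percentile below is the percentage of peaks of the same list with a lower score. Where peaks of different lists had an exonic base in common on 1 strand they were taken as 1 region. As a check of the tissue, 2 to 4 of 4 microglial, 2 of 4 astrocytic, 1 to 3 of 6 neuronal, 1 to 3 of 3 endothelial and 0 to 2 of 4 oligodendrocytic marker genes held a peak in each list, none of 4 blood leukocyte markers did in any list, and 1 of 2 choroid plexus markers did in 1 list. The neuronal markers Snap25, Syt1 and Slc17a7 and the astrocytic Gfap held no peak in any list. A peak is not a measure of expression, and in bulk tissue fewer cells of a type and less RNA per cell cannot be told apart.

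A peak in at least 1 list was found in 69.5% of the 82 genes, against 51.8% of all protein-coding genes. A peak in every list was found in 23 of them (28.0%, against 18.5%), and 21 held a region found in all 8 lists (25.6%, against 14.7%). All protein-coding genes of the annotation were counted, expressed in this tissue or not, and the part of expression in these shares was not tested. Another 19 genes were marked in 4 to 7 lists and 15 in 1 to 3 lists, and 25 held no peak. In Sham 40 and 40 of the genes were marked, at 0 h of reperfusion 40 and 43, at 6 h 38 and 36, and at 24 h 38 and 41. The mean was 39.5 ± 2.14 (SD, n = 8). MCAO/R-6 h had the 2 lowest values, one of them equal to a MCAO/R-24 h value. Over all protein-coding genes, 6558 and 7017 were marked in Sham and 7038 and 7908 at 0 h. At 6 h these counts were 7539 and 7794, above both Sham lists, and at 24 h 6896 and 7552.

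**Figure D1:**
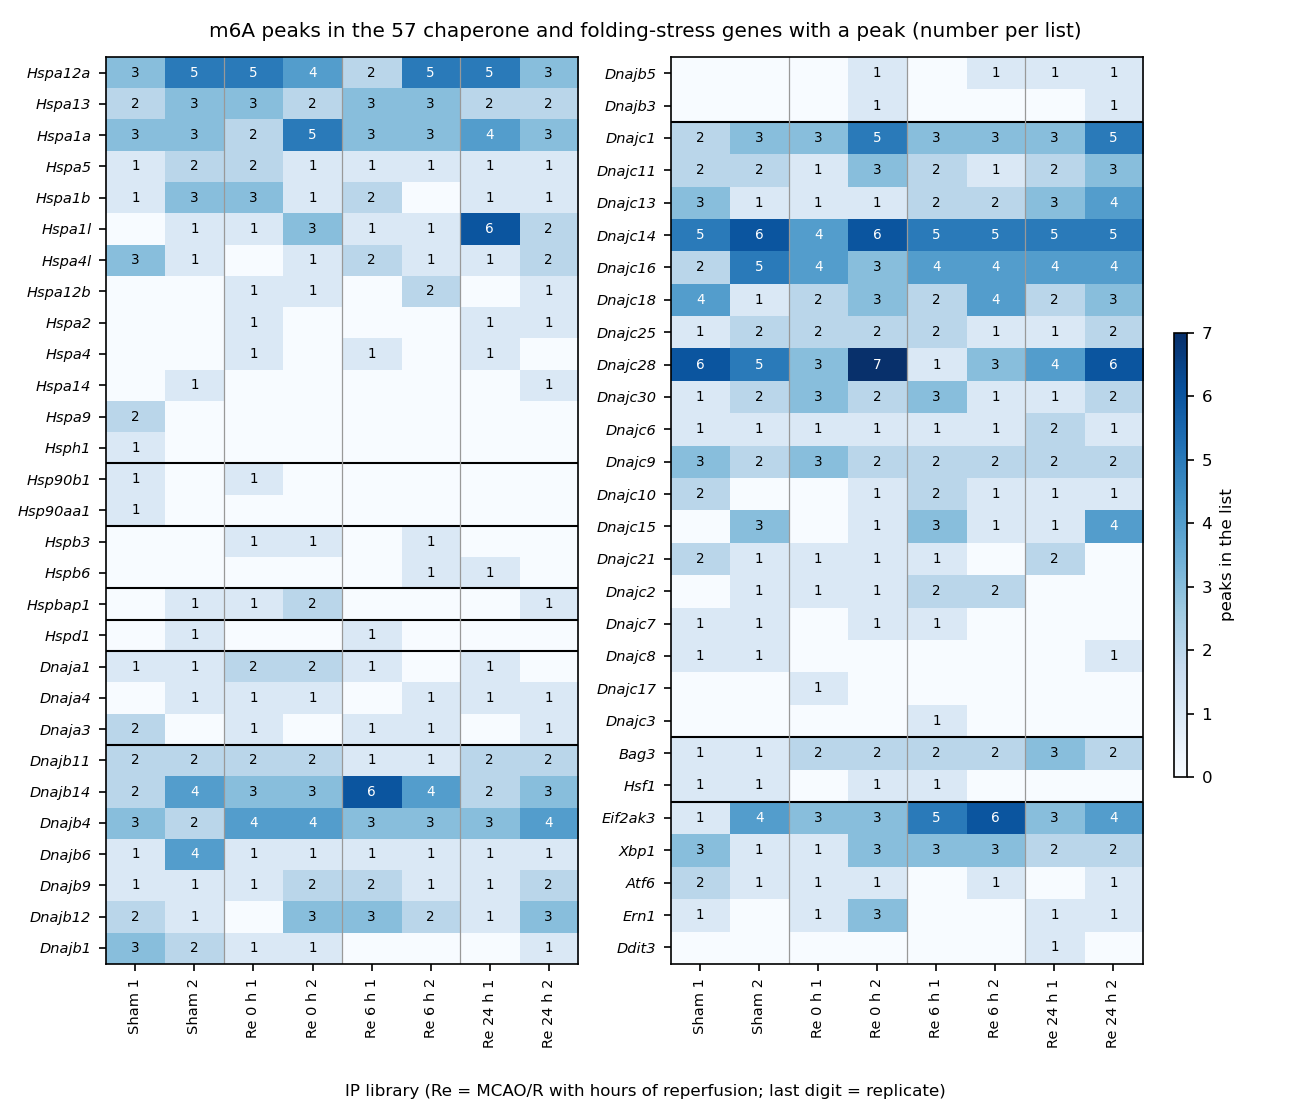
Number of m6A peaks in each IP library (columns, 2 libraries each of Sham and of reperfusion for 0, 6 and 24 h, marked Re) for the 57 genes with a peak (rows, ordered by family between black lines and within a family by the number of lists). Hspa12a, Hspa1a and Dnajc14 held 2 or more peaks in every list, while Hsp90aa1, Hsph1 and Hspa9 were listed in Sham replicate 1 only.

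Among the 14 Hsp70 and Hsp110 genes, 13 were marked and 4 were marked in all 8 lists: the inducible cytosolic Hsp70 Hspa1a, the endoplasmic reticulum Hsp70 Hspa5 (BiP), Hspa13 and the atypical Hsp70 Hspa12a. The 14th, Hspa8, the constitutive cytosolic Hsp70, held no peak. Mitochondrial Hspa9 and the Hsp110 exchange factor Hsph1 were listed in 1 library each. Of the 3 Hsp90 genes, none was marked in more than 2 lists: Hsp90aa1 held 1 peak in 1 Sham library, Hsp90b1 (the endoplasmic reticulum form) a 3' UTR peak in 1 Sham and 1 MCAO/R-0 h library, and Hsp90ab1 none. The small heat shock genes were marked in 2 of 7 cases, Hspb3 in 3 lists and Hspb6 in 2, and Hspb1, Hspb2, Hspb7, Hspb8 and Hspb9 held no peak. Of the mitochondrial chaperonin pair, Hspd1 was marked in 2 lists and Hspe1 in none, and Hspbap1 was marked in 4 lists and Hspbp1 in none.

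The J proteins were the largest family. Of 45 genes, 31 were marked, 16 of them in every list: Dnajb4, Dnajb6, Dnajb9, Dnajb11 and Dnajb14, and Dnajc1, Dnajc6, Dnajc9, Dnajc11, Dnajc13, Dnajc14, Dnajc16, Dnajc18, Dnajc25, Dnajc28 and Dnajc30. Dnajc14 held the most peaks of the 82 genes, 41 in 11 regions, none of which was found in all 8 lists. The 14 J protein genes without a peak were Dnaja2, Dnajb2, Dnajb7, Dnajb8, Dnajb13, Dnajc4, Dnajc5 (the synaptic vesicle protein CSPα), Dnajc5b, Dnajc5g, Dnajc12, Dnajc19, Dnajc22, Dnajc24 and Dnajc27. Of the heat shock factors and Bag3, only Bag3 was marked in all 8 lists. Hsf1, the main factor of the heat shock response, held 4 single-list peaks in 4 different regions, and Hsf2 none. In the unfolded protein response, Eif2ak3 and Xbp1 were marked in all 8 lists, Atf6 in 6 and Ern1 in 5. Ddit3 (CHOP) held 1 peak in 1 MCAO/R-24 h library, and Atf4 none.

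The genes differed in structure with the number of lists. The median transcript was 4237 nt long in the 23 genes marked in every list, 3370 nt in the 34 marked in 1 to 7 lists and 2355 nt in the 25 without a peak, and the median longest exon was 2994, 1930 and 1141 nt. All protein-coding genes in the same classes had longest exons of 2838, 1616 and 1019 nt, so the order was that of the whole annotation.

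Many chaperone genes have close copies or pseudogenes, and the authors removed reads that map to several places. In 9 of the 82 genes more than 20% of the 50-nt windows of the transcript occurred elsewhere in the genome. Hspa8 (75.7%), Hspb1 (71.0%) and Hspe1 (46.5%) were without a peak, Hsp90aa1 (64.6%) and Hspd1 (58.5%) were marked in 1 and 2 lists, Dnaja1 in 6, Hspa1b (62.3%) in 7, and Dnajb6 (77.8%) and Hspa1a (60.3%) in 8. The other 22 genes without a peak were below that level, 12 of them at 0, among them Atf4, Dnajb2, Dnajc5 and Hspb8. The part of shared sequence in the missing peaks was not tested.

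**Figure D2:**
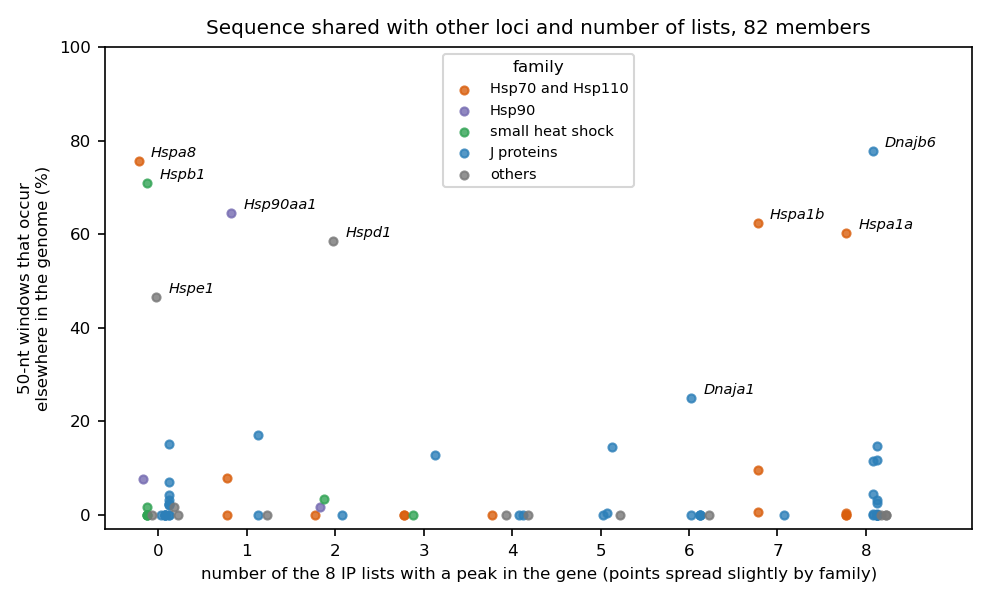
Share of 50-nt transcript windows that occur elsewhere in the genome (vertical axis, %) against the number of IP lists with a peak (horizontal axis) for the 82 genes, coloured by family. Of the 9 genes above 20%, named beside their points, 3 had no peak and 2 were marked in all 8 lists.

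The positions of the peaks were described on spliced transcripts. The distance to the stop codon was counted for peaks centred on the gene's longest-CDS transcript. Of such peaks in these genes, 28.8% ± 3.70 (SD, n = 8) had their centre at most 200 nt from the stop codon. Single lists ranged from 23.4% to 33.3%. Over all protein-coding genes the share was 20.4% ± 0.397, with 19.6% to 20.8%, so each list of the chaperone genes lay above the range of all genes. By class, 52.6% ± 3.35 of all peaks in these genes lay in the CDS (58.5% ± 1.45 for all genes). Another 43.0% ± 3.79 lay in the 3' UTR (36.0% ± 1.37) and 4.35% ± 1.22 in the 5' UTR (5.49% ± 0.387). RRACH sites stood at 20.3 ± 1.08 per kb of peak, against 18.7 ± 0.150 over all genes. Single lists ranged from 48.7% to 59.5% in the CDS (56.5% to 60.3% for all genes). In the 3' UTR they ranged from 34.5% to 47.4% (34.3% to 38.2%), and RRACH sites from 18.4 to 21.8 per kb (18.5 to 18.9). Sham replicate 2 was near its values over all genes in each (59.5% against 60.3%, 34.5% against 34.5%, and 18.4 against 18.5). These are descriptions of genes that share libraries, and no test was run on them.

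Of the 199 regions in these genes, 26 (13.1%) were found in all 8 lists, against 8.97% of the 52776 regions of the series, and 97 (48.7%) in 1 list, against 52.6%. In 18 of the 26 a base was shared by all 8 lists; in the others the peaks formed a chain of overlaps. A window of 101 nt on the bases shared by most lists held an RRACH word in all 26, against 90.4% of the 4698 such windows of the series, and GGACT in 7 (26.9%, against 15.8%). The 12 words of RRACH were searched on the strand of the gene only, since the target is RNA.

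The highest-scoring of these regions lay in chaperones of the endoplasmic reticulum and in Hsp70 and J protein genes. Dnajb9 (ERdj4, a BiP partner) held a region at a score percentile of 98.4 to 99.9 in the 8 lists, in the last exon (1847 nt), and 30.7% of the 50-nt windows on it occur elsewhere in the genome. Hspa13 ranged from 95.2 to 99.4 in the last exon (3427 nt), and the distal 3' UTR region of Hspa12a, about 2020 nt past the stop codon, from 89.8 to 99.4. The Dnajb4 coding region, in exon 5 of 6, ranged from 92.8 to 99.4, and Hspa5, across the end of its coding sequence in exon 9 of 9, from 93.7 to 99.7. The 25 nt around the RRACH site nearest to the middle of the most widely shared bases are shown for these regions, read in the sense of the mRNA from GRCm39, with the RRACH word in capitals:
Dnajb9, CDS, chr12:44253882-44253906, minus strand: atatgtttgaAGACAtggagaaaat
Hspa13, CDS, chr16:75555206-75555230, minus strand: ccacagattaAGACAggcggtggag
Hspa12a, 3' UTR, chr19:58785742-58785766, minus strand: gcttgccgcaGAACTccctgccaga
Dnajb4, CDS, chr3:151892331-151892355, minus strand: cattattcatGAACTtaaagtatcg
Hspa5, CDS, chr2:34666047-34666071, plus strand: aattatcagcAAACTctatggaagt
The words of Dnajb9, Hspa13, Hspa12a and Dnajb4 were held by the peaks of all 8 lists. That of Hspa5, 64 nt before the stop codon, was held by 6, the lists of MCAO/R-6 h lacking it. A word is a description of the sequence and does not place a methylated base.

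The time course was followed in 2 ways: by the rank of regions found in all 8 lists, and by regions present or absent in both lists of a group. All comparisons of a reperfusion time with Sham use the same 2 Sham lists. For the ranks, the normal score of the rank of the best peak was compared with limma over all 4735 regions in all 8 lists. A difference of 1 on this scale is 1 SD of the normal scores of a list. At an adjusted p under 0.05, limma called 0 of the 4735 regions (0%), and so 0 of the 26, at every time. At an unadjusted p under 0.05, 315 regions (6.65%) passed at 0 h, 442 (9.33%) at 6 h and 382 (8.07%) at 24 h. Of the 26 regions in chaperone and folding-stress genes, 2 (7.69%), 6 (23.1%) and 5 (19.2%) did so. Their median difference from Sham was 0.07, 0.32 and 0.35, against 0.09, 0.11 and 0.09 over all regions. Between reperfusion times limma called 0 regions as well, with 5 of the 26 (19.2%, against 6.23% of all) under an unadjusted 0.05 from 0 to 6 h, 3 (11.5%, against 7.10%) from 6 to 24 h and 3 (11.5%, against 6.44%) from 0 to 24 h. No single region below passed the adjustment, and the values describe these libraries.

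Hspa1a had the lowest p of the 26 regions at 0 h and 24 h. Its 3' UTR region (chr17:35188166-35188915, minus strand, in the only exon) had score percentiles of 6.04 and 17.5 in Sham, 90.5 and 80.2 at 0 h, 71.0 and 95.6 at 6 h, and 86.7 and 89.4 at 24 h. All 6 MCAO/R libraries lay above both Sham libraries. The differences were 2.32 ± 0.42 (SE; adjusted p = 0.559, limma), 2.37 ± 0.42 (adjusted p = 0.180) and 2.42 ± 0.42 (adjusted p = 0.325) at 0, 6 and 24 h. The peaks also covered different bases: the Sham peaks were 50 and 75 nt long and centred 87 and 100 nt past the stop codon, while the peaks of MCAO/R covered 100 to 575 nt of the region. At most 5 of the 8 lists shared a base, so the region is a chain, and the rank compares peaks that need not overlap. None of its 50-nt windows occurred elsewhere in the genome. RNA abundance was not measured, and its part in these ranks and peak lengths was not tested.

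In the coding sequence of Hspa1a the peaks stood at different places in the groups. A region 375 nt before the stop codon was held by both Sham libraries, at percentiles of 64.1 and 60.5, and by none of the 6 MCAO/R libraries. A region of 100 nt, 813 nt before the stop codon, was held by both MCAO/R-6 h libraries (54.8 and 57.9) and no other, and a region 106 nt before it by both MCAO/R-24 h libraries (37.5 and 40.3) and no other. Of the 50-nt windows on these 3 regions, 69.6%, 100% and 92.0% occur elsewhere in the genome, against 84.7% for the whole coding sequence, and the part of this in their placing was not tested. The neighbouring copy Hspa1b, the other inducible Hsp70, held a 75-nt peak with the same ends, centred 83 nt past its stop codon, in MCAO/R-0 h replicate 1 (75.7) and both MCAO/R-24 h libraries (70.0 and 71.1). It was absent from both Sham and both MCAO/R-6 h libraries, its windows do not occur elsewhere, and it held no RRACH word.

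Bag3, the exchange factor that links Hsp70 to selective autophagy, had the lowest p of the 26 at 6 h. The region at the end of its coding sequence, in exon 4 of 4 (chr7:128147469-128148318, plus strand), had score percentiles of 13.7 and 17.8 in Sham, 19.6 and 52.3 at 0 h, 93.6 and 91.4 at 6 h, and 63.8 and 82.4 at 24 h. Sham and MCAO/R-0 h lay below both later times without overlap. The difference from Sham was 0.61 ± 0.36 (SE; adjusted p = 0.864, limma) at 0 h, 2.45 ± 0.36 (adjusted p = 0.111) at 6 h and 1.65 ± 0.36 (adjusted p = 0.414) at 24 h, and MCAO/R-6 h exceeded MCAO/R-0 h by 1.84 ± 0.36 (adjusted p = 0.435). The replicates of MCAO/R-0 h lay apart, and its difference from Sham was 1.07 without replicate 1 and 0.16 without replicate 2. The peaks covered 50 and 50 nt of the region in Sham, 50 and 175 nt at 0 h, 850 and 525 nt at 6 h and 525 and 425 nt at 24 h. At most 6 lists shared a base, and no window of the transcript occurs elsewhere. As for Hspa1a, the part of RNA abundance in these ranks and peak lengths was not tested. The RRACH words nearest to the most widely shared bases of the Hspa1a and Bag3 regions are shown because they lie inside peaks of the MCAO/R libraries and outside those of Sham:
Hspa1a, 3' UTR, chr17:35188686-35188710, minus strand: ttgttttgcaGGACAgccaaagcta
Bag3, CDS, chr7:128148080-128148104, plus strand: gcaacccagcAGACTcagctggcaa
The Hspa1a word, 280 nt past the stop codon, was held by 5 MCAO/R libraries (all but MCAO/R-6 h replicate 1), and the Bag3 word, 26 nt before it, by the 4 libraries of the later times.

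**Figure D3:**
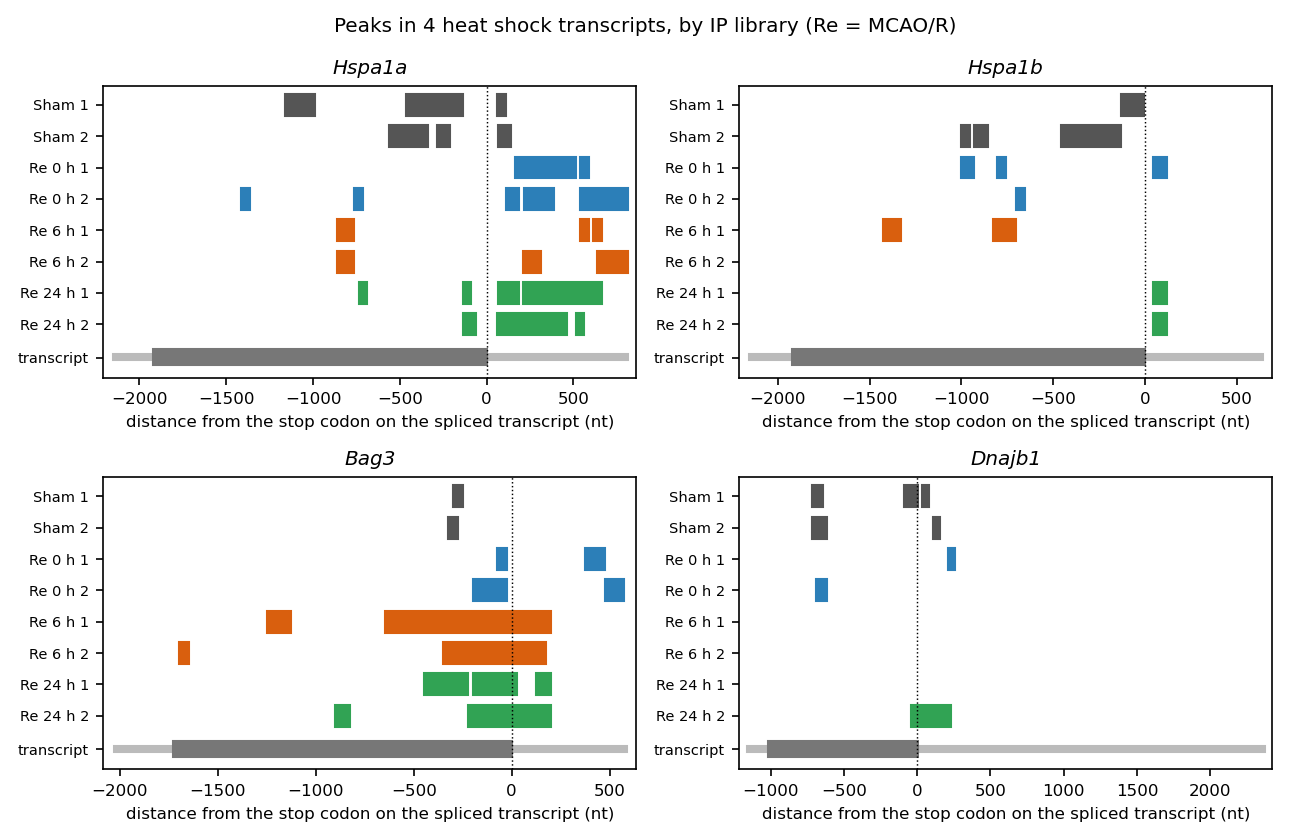
Peaks in the spliced transcripts of Hspa1a, Hspa1b, Bag3 and Dnajb1 (horizontal axis, nt from the stop codon) in each IP library (rows; Re = MCAO/R with hours of reperfusion, then the replicate); the thick grey bar is the CDS and the thin bar the UTRs. In Hspa1a the long 3' UTR peaks and in Bag3 the long peaks across the stop codon are those of MCAO/R libraries, and Dnajb1 has no peak in MCAO/R-6 h.

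Dnajb1, the inducible cytosolic J protein that works with Hspa1a, had peaks in both Sham libraries in 2 regions. The coding region, in exon 2 of 3, had percentiles of 17.2 and 62.6 in Sham and 57.4 in MCAO/R-0 h replicate 2, and was in none of the 4 libraries of the later times. The region at the stop codon and the start of the 3' UTR had percentiles of 42.2 and 20.5 in Sham, 24.7 in MCAO/R-0 h replicate 1 and 72.9 in MCAO/R-24 h replicate 2, and was absent from both MCAO/R-6 h libraries. Dnajb1 thus held no peak in MCAO/R-6 h.

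Of the endoplasmic reticulum chaperones, Hspa5 had score percentiles of 99.7 and 96.4 in Sham, 99.2 and 99.5 at 0 h, 93.7 and 94.5 at 6 h, and 98.7 and 98.6 at 24 h. The MCAO/R-6 h libraries were the lowest 2, and their peaks covered 50 nt each, against 225 to 525 nt in the other libraries. The difference of MCAO/R-6 h was -0.74 ± 0.34 from Sham (SE; adjusted p = 0.566, limma) and -0.92 ± 0.34 from MCAO/R-0 h (adjusted p = 0.763). The former was -0.24 without Sham replicate 1 and -1.24 without Sham replicate 2. Dnajb11 (ERdj3) was marked in every list, and a region in its exon 2 of 11 was held by both Sham libraries (58.1 and 86.0) and MCAO/R-24 h replicate 2 (81.5) only.

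Eif2ak3 (PERK), the kinase that slows translation when unfolded proteins accumulate, held a 3' UTR region centred about 171 nt past the stop codon in all 8 lists. Its percentiles were 46.0 and 63.1 in Sham, 38.4 and 75.3 at 0 h, 76.7 and 60.5 at 6 h, and 72.1 and 74.3 at 24 h. Both MCAO/R-24 h libraries lay above both Sham libraries, while both earlier times overlapped Sham. A second region lay in coding exon 14 of 17 (chr6:70873900-70873964, plus strand) and was absent from both Sham libraries and MCAO/R-0 h replicate 1. It had percentiles of 49.6 in MCAO/R-0 h replicate 2, 39.8 and 38.4 at 6 h, and 36.2 and 69.9 at 24 h, and the replicates of MCAO/R-0 h thus disagreed. The exon is 168 nt long, so the region lies in a short internal exon, and its peaks covered 40 to 65 nt of it.

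Xbp1, whose mRNA is cut by Ern1 into the form that encodes the active factor, held a single region in all 8 lists, in its last exon. The longest coding transcript, 312 nt longer in its CDS than the full-length transcript of 2134 nt, is the spliced form, so a base in the CDS of that form can lie past the stop codon of the other. Score percentiles were 52.6 and 91.7 in Sham, 1.78 and 84.3 at 0 h, 72.6 and 81.3 at 6 h and 68.9 and 92.2 at 24 h. Replicates of MCAO/R-0 h differed most, and that of 1.78 rests on a peak with 11 exonic nt. The RRACH words of Eif2ak3 and Xbp1 are shown because both regions of Eif2ak3 hold one and that of Xbp1 changes its place with the isoform:
Eif2ak3, 3' UTR, chr6:70881418-70881442, plus strand: gatcttaactGAACTtcaaggaaag
Eif2ak3, CDS, chr6:70873934-70873958, plus strand: tcaaggttggGGACTttggactggt
Xbp1, last exon, chr11:5474925-5474949, plus strand: acagagagtcAAACTaacgtggtag
The word in the 3' UTR of Eif2ak3 was held by all 8 lists, that in exon 14 by both MCAO/R-6 h libraries and MCAO/R-24 h replicate 2, and that of Xbp1 by 6 lists. The Xbp1 word lies 303 nt before the stop codon of the longest coding transcript and 35 nt past that of the full-length one.

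Among the other J proteins, Dnajc25 had percentiles of 33.5 and 56.3 in Sham, 27.5 and 60.2 at 0 h, 84.7 and 87.1 at 6 h, and 83.8 and 76.6 at 24 h. As in Bag3, Sham and MCAO/R-0 h lay below both later times, by 1.21 ± 0.35 (SE; adjusted p = 0.378, limma) for MCAO/R-6 h and 0.99 ± 0.35 (adjusted p = 0.530) for MCAO/R-24 h against Sham. Dnajc18 was at 12.1 and 50.7 in Sham and at 54.0 to 86.1 in the 6 MCAO/R libraries, all above Sham. The difference was 1.09 ± 0.42 (SE; adjusted p = 0.708, limma) at 0 h and 1.30 ± 0.42 (adjusted p = 0.490) at 24 h. Its size rested on the Sham libraries, with 0.50 and 0.71 without Sham replicate 1, and 1.68 and 1.89 without Sham replicate 2. The coding region of Dnajc1 (ERdj1) reached 93.0 and 73.8 at 24 h, against 16.0 to 70.2 in the other 6 libraries, a difference from Sham of 1.29 ± 0.49 (SE; adjusted p = 0.578, limma). It was 0.53 without Sham replicate 1 and 2.05 without Sham replicate 2.

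In the opposite direction, Dnajb6, which suppresses protein aggregation, was at 67.5 and 77.4 in Sham, 68.4 and 49.1 at 0 h, 20.6 and 46.3 at 6 h and 62.0 and 58.0 at 24 h. MCAO/R-6 h held the 2 lowest values, at -1.06 ± 0.33 from Sham (SE; adjusted p = 0.411, limma), and the difference was -0.70 without MCAO/R-6 h replicate 1 and -1.42 without replicate 2. The region lies in the 3' UTR of a shorter isoform, and all of its 50-nt windows occur elsewhere in the genome. The coding region of Dnajb4 was at 99.4 and 99.1 in Sham, 96.4 and 98.7 at 0 h, 94.0 and 92.8 at 6 h and 96.0 and 97.7 at 24 h, with MCAO/R-6 h again lowest (-0.94 ± 0.27, SE; adjusted p = 0.377, limma). Dnajc28 was at 4.42 and 57.2 at 6 h and at 66.4 to 91.6 in the other libraries. Its replicates at 6 h were far apart: the difference from Sham of -1.35 ± 0.56 (SE; adjusted p = 0.514, limma) was -0.40 without replicate 1 and -2.29 without replicate 2.

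**Figure D4:**
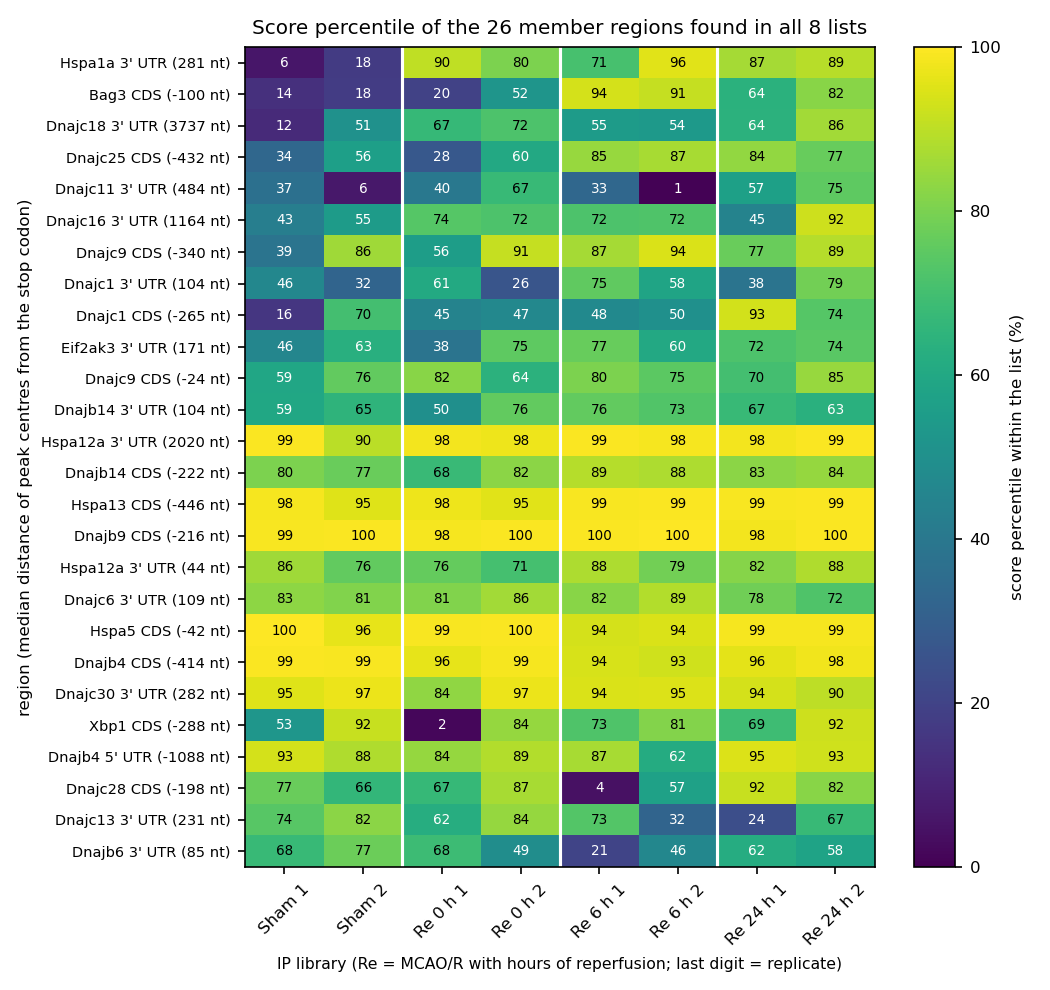
Score percentile within its list (colour and number, %) of the 26 regions of chaperone and folding-stress genes found in all 8 lists (rows, with the median distance from the stop codon; ordered by the mean of the 6 MCAO/R libraries minus that of Sham) in each IP library (columns). Hspa1a and Bag3 head the order with Sham percentiles under 20, and Hspa5, Hspa13, Dnajb9 and Dnajb4 are above 92 in every library in their coding regions.

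The other regions of this kind lay in Dnajb4 (5' UTR), Dnajb14 (2 regions), Dnajc1 (3' UTR), Dnajc6, the auxilin that uncoats clathrin vesicles in neurons, Dnajc9 (2 regions), Dnajc11, Dnajc13, Dnajc16, Dnajc30 and Hspa12a (2 regions). None of them had an unadjusted p under 0.05 against Sham. Dnajc6 was among the steadiest, at 72.4 to 88.6, and the 3' UTR region of Dnajc11 among the most scattered, at 0.599 to 75.3, with 33.4 and 0.599 in the 2 MCAO/R-6 h libraries.

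Over all peaks in the 82 genes, not only those in every list, the median score percentile was 52.5 and 54.3 in Sham, 52.6 and 55.0 at 0 h, 60.1 and 60.2 at 6 h and 63.1 and 64.5 at 24 h. Sham and MCAO/R-0 h overlapped, and the 4 later libraries lay above them. Over all protein-coding genes the medians were 51.2 to 52.0. Without Hspa1a and Bag3, left out after their values were seen, the medians were 53.3 to 55.4 in Sham and MCAO/R-0 h and 60.0 to 65.1 at the later times. Peak length moved with it: the median exonic length of the members' peaks was 99.2 ± 1.06 nt (SD, n = 2) in Sham, 115 ± 13.8 nt at 6 h and 131 ± 8.49 nt at 24 h, with 100 nt in both MCAO/R-0 h lists. Over all protein-coding genes it was 108 ± 10.6 nt in Sham and 125 nt in all 6 MCAO/R lists, so peaks were longer than in Sham there too. The parts of peak length and of RNA abundance in the ranks were not tested.

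Presence and absence gave few changes. A region was counted as gained when it stood in the 2 lists of a time point and in no Sham list, and as lost when it stood in the 2 Sham lists and in neither list of the time point. Gained regions numbered 4 of 148 (2.70%, against 3.84% of all regions) at 0 h, 6 of 140 (4.29%, against 4.94%) at 6 h and 7 of 146 (4.79%, against 3.79%) at 24 h. Lost regions numbered 2 (1.35%, against 1.87%), 5 (3.57%, against 2.03%) and 2 (1.37%, against 2.76%). These shares stood near the background in both directions, and an exact permutation test of 2 lists against 2 has a smallest possible p of 0.333, and none was computed.

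**Figure D5:**
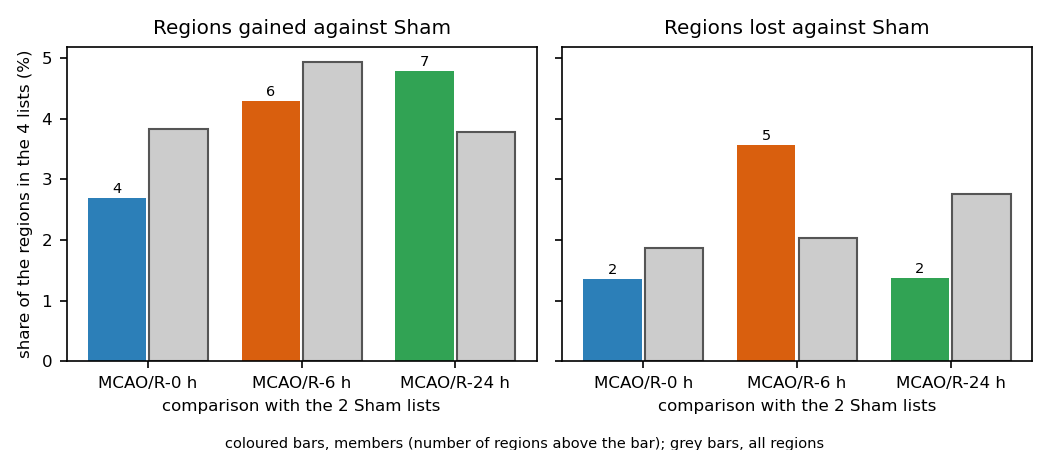
Share of regions gained (left) and lost (right) against the 2 Sham lists at each reperfusion time (vertical axis, % of the regions in the 4 lists) for the chaperone and folding-stress genes (coloured bars, with the number of regions) and for all regions (grey bars). The coloured bars stand on both sides of the grey ones, from 1.35% to 4.79% against 1.87% to 4.94%.

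By gene, MCAO/R-0 h gained regions in Dnaja4 (5' UTR), Dnajc14, Dnajc28 and Hspb3, a small heat shock protein of muscle whose 3' UTR peak was also in MCAO/R-6 h replicate 2. MCAO/R-6 h gained regions in Hspa1a, Eif2ak3, Hspa13, Dnajc16, Dnajb14 and Hspa4l, an Hsp110 protein, the last 2 and Hspa13 in distal 3' UTRs at about 6629, 2454 and 2713 nt from the stop codon. MCAO/R-24 h gained regions in Hspa1a, Hspa1b, Hspa1l, Eif2ak3, Dnaja4, Dnajb12 and Dnajc15. In the lists of the time of gain, score percentiles of the gained regions ran from 5.35 (Dnaja4) to 71.1 (Hspa1b), both at 24 h. Those of Dnaja4, Hspa13 and Dnajc16 were at most 22.0 in every list that held them, and the others reached higher values. Lost regions lay in Hspa1a at all 3 times, in Dnajb11 at 0 and 6 h, in Dnajb1 at 6 h (2 regions) and 24 h, and in Hspa4l at 6 h. The Hspa4l region, spanning the start of the last exon, was at 81.7 and 88.8 in Sham, 91.9 in MCAO/R-0 h replicate 2 and 84.8 and 89.3 at 24 h, and in neither library of MCAO/R-6 h.

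Of 52 other genes of the pathways, listed apart from the naming rule, 34 held a peak and 9 did so in every list. In the 27 genes of endoplasmic reticulum folding and stress, 22 were marked and 7 in all lists (Pdia4, Manf, Sel1l, Ppp1r15b, Eif2ak1, Eif2ak2 and Mbtps1), and in the 25 co-chaperones and foldases 12 were marked and 2 in all lists (Bag4 and Bag5). Genes with a gained region numbered 4 at 0 h (7.69% of the 52, against 5.09% of all protein-coding genes), 5 at 6 h (9.62%, against 6.26%) and 6 at 24 h (11.5%, against 4.75%). Genes with a lost region numbered 4 (7.69%, against 2.62%), 3 (5.77%, against 2.84%) and 5 (9.62%, against 3.67%). These shares rest on 3 to 6 genes each, a peak was found in 34 of the 52 genes against 51.8% of all genes, and no test was run on them.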

How the data were processed

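The authors used Trim Galore for trimming, HISAT2 for alignment to GRCm39 and samtools to discard reads without a unique place. By the paper's methods, peaks came from exomePeak2, with cutoffs of 0.05 for p and 0.5 for the log2 fold change. The deposited lists give each peak a score by the authors' peak caller, and no counts. The RNA fragments were near 100 nt by the methods and near 200 nt by the sample records.

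The members, the gene lists and the genes named were chosen with earlier results of these data known. Named were members with a region in all 8 lists, members with a gained or lost region, and a fixed list of stress-induced and signalling members. Each peak was given to the gene of its strand with the most exonic overlap (GENCODE M39, GRCm39) and placed by its exonic middle, CDS before UTRs. Distances and exon numbers were taken on each gene's longest-CDS transcript. For a peak centred off it, another transcript of the gene that holds the centre was used, that with the longest CDS first. The shares near the stop codon left such peaks out. Transcript windows of 50 nt were searched on both strands of the genome. Score ranks were compared with limma 3.58.1 in R 4.3.3, with 1 spread for the 4 groups and Benjamini-Hochberg adjustment over 4735 regions; other steps used Python 3.11.15, numpy 2.4.6, scipy 1.17.1, pysam 0.24.0 and matplotlib 3.10.9. Tested on 4988 simulated peaks, 98.3% were given the right gene and 87.5% of those across introns were rebuilt. For limma, independent normal values were simulated with the means and spread of the 4735 regions, and shifts were planted at MCAO/R-24 h. Against Sham, limma called 18 of 100 planted shifts of 1, 90 of 100 shifts of 2 and 3 of 4535 unchanged regions. These shares need not hold for the ranks of the real lists. Alternatives were other peak sets, joining, windows, motif, score scale, samples in the fit, a replicate block and leaving out each library.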

Additional observations from a re-analysis of the deposited data

How the results depend on the processing

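The lists hold peaks without depth, and 2 libraries per group limit what could be called. With only the upper 50% of scores in a list, 28.9 genes per list were marked on average, 32.8% of centres stood by the stop codon, 1 region was gained at 0 h and 1 lost at 24 h; a window of 400 nt gave 46.6%, and GGACT alone 2.05 sites per kb. Leaving out 1 library gave 39 to 40 genes, 28.1% to 29.5% near the stop codon, 51.7% to 53.2% in the CDS, 42.4% to 44.2% in the 3' UTR and 20.1 to 20.6 RRACH sites per kb. With 1 list on a side, fewer lists have to agree, and regions gained ranged from 6 to 28 (0 h), 9 to 23 (6 h) and 10 to 29 (24 h), those lost from 3 to 27, 5 to 28 and 3 to 28. The libraries behind this were both of Sham and both of each time: without Sham replicate 1, 27, 28 and 28 were lost and 11 gained at 24 h, without Sham replicate 2, 23, 28 and 22 were lost and 11 and 10 gained at 0 and 6 h, without replicate 1 of the time, 28, 19 and 29 were gained, and without its replicate 2, 20, 23 and 20 were gained and 7 and 5 lost at 0 and 24 h. Over all regions limma, with a lone library assumed to vary like the other groups, then called 0 to 1, 0 to 8 and 0 to 1 (1, 8 and 1 without Sham replicate 2, and 1 at 24 h without its replicate 1), and 0 regions of the chaperone and folding-stress genes. Over 12 alternatives the Hspa1a difference ranged from 1.94 to 2.63 (0 h), 1.80 to 2.95 (6 h) and 1.97 to 2.73 (24 h), with adjusted p from 0.147 to 0.861, and that of Bag3 at 6 h from 2.29 to 2.54 with adjusted p from 0.0925 to 0.652. None of the alternatives turned the direction of the differences from Sham named with an unadjusted p under 0.05. With 2 libraries in every group of the fit, none brought one under an adjusted p of 0.05 (limma). The differences between reperfusion times were not run under the alternatives. The deviations of same-numbered replicates correlated weakly between groups (0.0406 to 0.0841, all positive). This does not settle whether the numbers pair the libraries. With the replicate block, limma called 0 regions at each time. At an unadjusted p of 0.05, 382, 525 and 474 passed with the block, against 315, 442 and 382 without it.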
